A study of Mus musculus with 4 samples.

Results

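The genes described here encode subunits of the phagocyte NADPH oxidase and the GTPase that switches it on. They were chosen by name, as Cybb, Cyba, Ncf1, Ncf4 and Rac2, and all 5 had a probe set of their own among the 19938 genes measured. RNA came from LSK cells sorted from mouse marrow, which lack lineage markers, carry Sca-1 and Kit and include the blood stem cells, and which were split by the surface receptor Flt3. There were 2 arrays of Hdac3-null LSK/Flt3- cells, 1 array of wild-type LSK/Flt3+ cells and 1 array of wild-type LSK/Flt3- cells. The null mice had the genotype Vav-Cre/Hdac3Flox/-, which joins 1 floxed and 1 null allele of Hdac3, a histone deacetylase, with Vav-Cre, a recombinase that the Vav promoter switches on in blood cells. All groups were of the C57BL/6 background, and each sample pooled cells of 5 to 30 mice. The labels give neither ages nor whether wild-type mice carried Cre. As all groups are LSK cells, they are named by genotype and Flt3.

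The oxidase moves electrons from NADPH across the membrane to oxygen and makes superoxide, which neutrophils and macrophages use against microbes. Its membrane core is cytochrome b558, made of gp91phox, the catalytic chain encoded by Cybb, and p22phox, the stabilising chain encoded by Cyba. At rest the organiser p47phox (Ncf1) and p40phox (Ncf4), which binds a phosphoinositide of the phagosome membrane, wait in the cytosol. When the cell is stimulated p47phox is phosphorylated, the cytosolic subunits dock on the membrane core, and GTP-bound Rac2 completes the active enzyme. Loss of a subunit causes chronic granulomatous disease in people.

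Promoter sequences, from 250 bases before to 50 bases after the transcript start, are shown for the 3 members with an entry among the promoter windows of build GRCm38.p6. Ncf4 and Rac2 had no entry there. The windows are chrX:9469275-9469574 for Cybb, chr5:134229576-134229875 for Ncf1 and chr8:122432891-122433190 for Cyba, all on the minus strand, and are printed 5′ to 3′ along the gene. Capitals mark matches on either strand to GAGGAA, a core of the kind bound by PU.1 and other ETS factors, and to an IRF type pattern of GAAA, then 2 bases of any kind, then GAAA.
Cybb: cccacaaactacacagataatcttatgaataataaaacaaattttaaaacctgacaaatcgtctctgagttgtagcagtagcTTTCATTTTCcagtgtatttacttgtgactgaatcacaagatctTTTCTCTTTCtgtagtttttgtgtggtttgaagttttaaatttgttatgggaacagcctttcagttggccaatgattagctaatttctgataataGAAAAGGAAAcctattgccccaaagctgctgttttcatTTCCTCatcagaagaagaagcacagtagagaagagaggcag
Ncf1: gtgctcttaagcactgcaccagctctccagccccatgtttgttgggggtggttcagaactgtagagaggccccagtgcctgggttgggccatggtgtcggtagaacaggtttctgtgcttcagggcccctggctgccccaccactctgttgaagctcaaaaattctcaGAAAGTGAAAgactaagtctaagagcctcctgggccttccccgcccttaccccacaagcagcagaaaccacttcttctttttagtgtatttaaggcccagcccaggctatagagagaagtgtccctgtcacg
Cyba: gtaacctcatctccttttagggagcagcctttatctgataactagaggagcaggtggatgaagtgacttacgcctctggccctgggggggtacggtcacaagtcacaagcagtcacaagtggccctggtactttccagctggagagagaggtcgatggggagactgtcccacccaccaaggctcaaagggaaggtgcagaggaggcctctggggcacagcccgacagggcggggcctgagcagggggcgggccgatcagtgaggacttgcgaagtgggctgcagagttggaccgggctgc
The Cybb window held GAGGAA once, as TTCCTC at bases 260 to 265, and the IRF type pattern 3 times, at bases 83 to 92, 127 to 136 and 222 to 231. The Ncf1 window held the IRF type pattern once, at bases 169 to 178, and the Cyba window held neither. Among all 32851 promoter windows of the same length, 28.3% held GAGGAA and 3.44% held the IRF type pattern on either strand. Neither TTGCNNAA, a C/EBP type pattern found in 10.8% of all windows, nor TATAAA, found in 13.6%, was in any of the 3. The GC content was 35.3% for Cybb, 54.0% for Ncf1 and 60.7% for Cyba, against a median of 52.7% over all windows. These matches describe letters and not binding.

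All values are log2 levels made by the authors with RMA, 1 probe set a gene, and a difference of 1 is a 2-fold change. Levels are compared between arrays for 1 gene, never between genes. The deposited array medians over all genes were 5.70 and 5.52 on null replicates 1 and 2, 5.58 on the Flt3+ array and 5.50 on the Flt3- array of the wild type. Against wild-type Flt3- the median gene difference was 0.09, so a gene that lies near this value does not stand apart from the median gene. For null replicate 1 alone that median was 0.15, and for replicate 2 alone 0.03. Hdac3 itself stood at 5.71 and 5.04 on the null arrays, 6.33 in wild-type Flt3+ and 6.18 in wild-type Flt3- cells, and the labels do not say whether its probes lie in the deleted part. Of the markers of the sorted fraction, Kit was at 10.77 and 10.36 on the null arrays, 10.11 in wild-type Flt3+ and 10.25 in wild-type Flt3- cells. Ly6a, which encodes Sca-1, is not named by the annotation. Flt3 RNA was at 7.84 and 7.02 on the null arrays, 10.07 in wild-type Flt3+ and 9.18 in wild-type Flt3- cells, so the fraction sorted as Flt3- still carried Flt3 message. Nothing in the labels says that the null arrays came from separate mice, so the spread behind the p-values may not be that between mice.

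Gene by gene, 3 of the 5 members, Cybb, Ncf1 and Ncf4, lay above wild-type Flt3- cells on both null arrays, as did 41.3% of all genes, and 0 lay lower on both, as 19.9% of all genes did. For Cyba and Rac2 the null arrays lay on opposite sides of the wild-type level. Against wild-type Flt3+ cells Ncf4 was higher on both null arrays, as were 35% of all genes, and Cybb and Ncf1 were lower on both, as were 25.1%. In none of the null comparisons did a member pass limma's test over all genes at an adjusted p of 0.05. In wild-type cells all 5 were higher in the Flt3+ than in the Flt3- fraction, with 1 array each and no test, as were 56.6% of all genes.

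**Figure D1:**
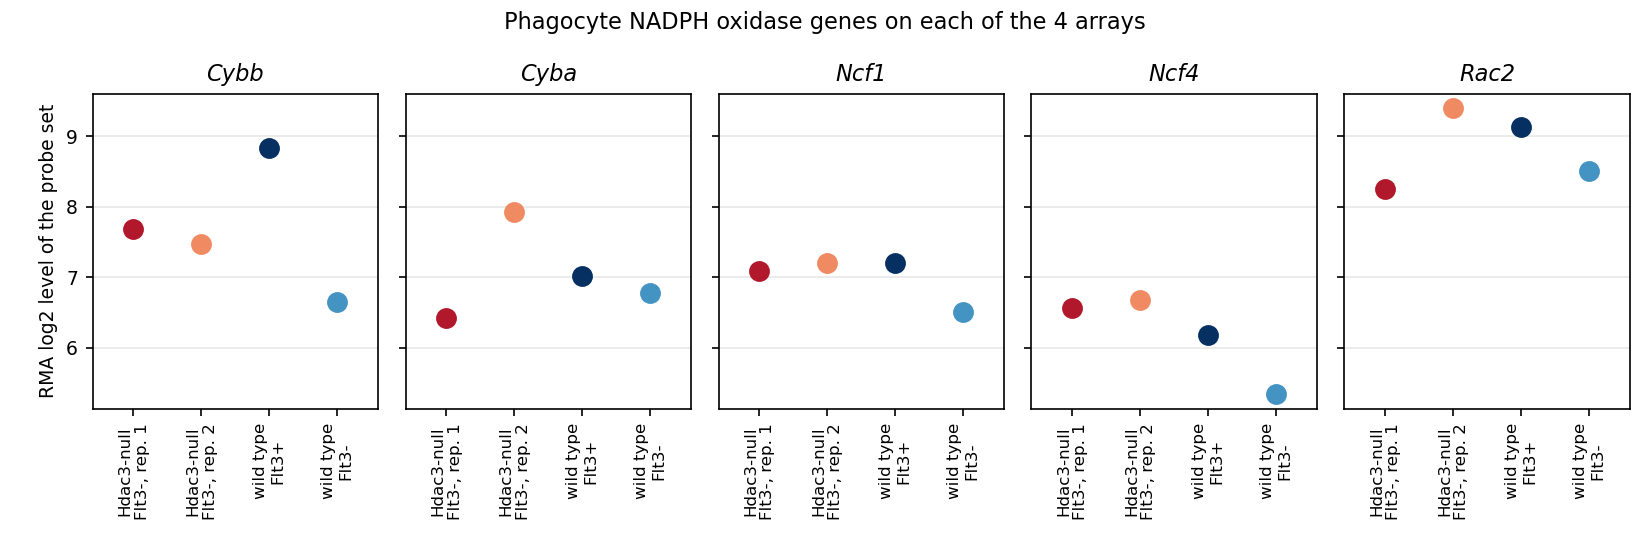
RMA log2 level (vertical axis) of each oxidase gene on the 2 Hdac3-null arrays, the wild-type Flt3+ array and the wild-type Flt3- array, 1 point an array. Levels are to be read within a gene. Cybb, Ncf1 and Ncf4 are lowest on the wild-type Flt3- array, while Cyba and Rac2 have their lowest and highest values on the 2 null arrays.

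Cybb, the catalytic chain, had log2 levels of 7.68 and 7.48 on the null arrays, 8.83 in wild-type Flt3+ and 6.65 in wild-type Flt3- cells. The wild-type fractions were the extremes, and the null pair lay between them, apart by 0.20 from each other and by at least 0.82 from either wild-type array. Null cells therefore stood 1.90-fold above wild-type Flt3- cells (log2 difference 0.92 ± 0.36, SE; limma adjusted p = 1, unadjusted p = 0.0283). Against wild-type Flt3+ cells they stood lower, at 0.418 of that level (log2 difference -1.26 ± 0.36, SE; limma adjusted p = 0.497, unadjusted p = 0.00586). In this second comparison Cybb was past 2-fold lower on each null array, by log2 differences of -1.16 and -1.36, as were 1.08% of all genes, while 0 members were at least 2-fold higher there, as 0.261% of all genes were. Both comparisons use the same null arrays, and the second differs in sorted fraction as well as in genotype. Between the wild-type fractions Cybb was 4.53-fold higher in Flt3+ cells (log2 difference 2.18), and 0.923% of all genes were at least 2-fold higher there. No member was at least 2-fold lower, as 0.176% of all genes were.

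Cybb lies on the X chromosome. Xist, the RNA of the inactive X, was at 10.84 and 9.67 on the null arrays, 3.90 in wild-type Flt3+ and 4.23 in wild-type Flt3- cells, and the Y-linked Eif2s3y was at 7.33 and 6.08 on the null arrays, 7.85 in wild-type Flt3+ and 8.05 in wild-type Flt3- cells. The pools thus differed in Xist and Y-linked signal, and the part of this in the Cybb values was not tested.

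Cyba, the p22phox chain that pairs with gp91phox, did not follow it. Its levels were 6.42 and 7.93 on the null arrays, 7.01 in wild-type Flt3+ and 6.77 in wild-type Flt3- cells. Null replicate 1 was the lowest of the 4 arrays and replicate 2 the highest, a 2.85-fold gap between samples with the same label that only 0.446% of all genes matched or exceeded. The mean difference was 0.40 ± 0.54 (SE) from wild-type Flt3- and 0.16 ± 0.54 (SE) from wild-type Flt3+ cells (limma adjusted p = 1 for each). On replicate 1 alone Cyba was at -0.36 from wild-type Flt3- and on replicate 2 alone at 1.16, so its direction with Hdac3 missing is set by which null array is read. The wild-type fractions differed by 0.24.

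Ncf1, which encodes the organiser p47phox, had levels of 7.09 and 7.20 on the null arrays, 7.21 in wild-type Flt3+ and 6.51 in wild-type Flt3- cells. The null pair and the Flt3+ array lay within 0.12 of each other, with the wild-type Flt3- array alone below them. The null mean was 0.63 ± 0.35 (SE) above wild-type Flt3- cells and differed by -0.06 ± 0.35 (SE) from wild-type Flt3+ cells (limma adjusted p = 1 for each). In wild-type cells Ncf1 was 1.62-fold higher in the Flt3+ fraction.

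Ncf4, which encodes p40phox, was the member farthest from wild-type Flt3- cells. Its levels were 6.56 and 6.67 on the null arrays, 6.17 in wild-type Flt3+ and 5.34 in wild-type Flt3- cells. Both null arrays were above both wild-type arrays, by 1.22 and 1.33 from Flt3- and by 0.38 and 0.50 from Flt3+ cells, while the null pair differed by 0.11. The fold over wild-type Flt3- was 2.42 (log2 difference 1.28 ± 0.34, SE; limma adjusted p = 0.812, unadjusted p = 0.00367), and that over wild-type Flt3+ was 1.36 (log2 difference 0.44 ± 0.34, SE; limma adjusted p = 1). Ncf4 was the 1 member at least 2-fold higher than wild-type Flt3- on both null arrays, as were 0.251% of all genes, and 0 members were as far below, as 0.381% of all genes were. In wild-type cells it was 1.78-fold higher in the Flt3+ fraction.

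Rac2, the GTPase made mainly in blood cells, had levels of 8.25 and 9.40 on the null arrays, 9.12 in wild-type Flt3+ and 8.50 in wild-type Flt3- cells. As for Cyba, the null replicates were the lowest and the highest array, 2.21-fold apart, and 1.72% of all genes had a gap at least as large. The mean difference was 0.33 ± 0.47 (SE) from wild-type Flt3- and -0.30 ± 0.47 (SE) from wild-type Flt3+ cells (limma adjusted p = 1 for each). Replicate 1 gave -0.25 and replicate 2 gave 0.90 against wild-type Flt3-, and the wild-type fractions differed by 0.62, a 1.54-fold higher level in Flt3+ cells. The related GTPase Rac1, which can take the place of Rac2 in the oxidase of some cells, was nearly flat, at 9.40 and 9.38 on the null arrays, 9.40 in wild-type Flt3+ and 9.31 in wild-type Flt3- cells.

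Markers of other cells differed between the null replicates as well. Erythroid markers had a summed linear level of 535 on null replicate 1 and 2753 on replicate 2, beside 3400 for wild-type Flt3+ and 4756 for wild-type Flt3- cells, with 6 of 7 higher on replicate 2 than on replicate 1, as were 6972 of 19938 genes. The carbonic anhydrase gene Car1 was at 6.44 and 10.92 on the null arrays, 11.37 in wild-type Flt3+ and 11.81 in wild-type Flt3- cells. Mast cell and basophil markers summed to 752 on replicate 1 and 1478 on replicate 2, with 7 of 8 higher on the second. Their sum was 1120 for wild-type Flt3+ and 624, below replicate 1, for wild-type Flt3- cells. Higher on replicate 2 were also 8 of 11 granulocyte-monocyte progenitor and 8 of 12 mature neutrophil markers. Beside 6972 of 19938 genes, those higher there were 4 of 13 monocyte and macrophage and 2 of 9 LSK and stem or progenitor markers. Of B lineage markers 2 of 7 and of T lineage markers 0 of 5 were. The erythroid and the mast cell and basophil sums were lower on replicate 1 than on replicate 2, as Cyba and Rac2 were. So were the monocyte and macrophage (950 against 1218), granulocyte-monocyte progenitor (9884 against 11234), mature neutrophil (661 against 675) and B lineage sums (353 against 381). The LSK and stem or progenitor (6143 against 4810) and T lineage sums (154 against 134) were higher on replicate 1. The part of any of these cells in the Cyba and Rac2 values was not tested.

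**Figure D2:**
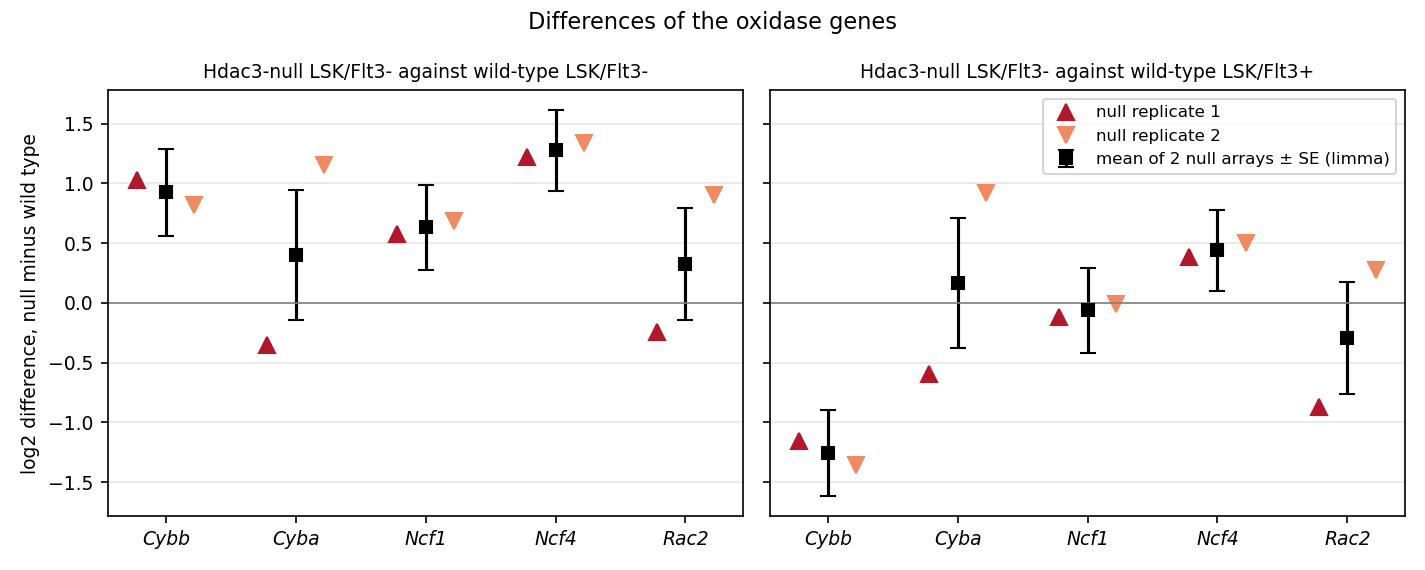
Log2 difference of null minus wild type (vertical axis) for each oxidase gene, against wild-type Flt3- in the left panel and wild-type Flt3+ in the right panel. Triangles are the 2 null arrays and squares their mean with limma's standard error. Ncf4 is above 0 on both null arrays in both panels, Cybb changes side between panels, and the triangles of Cyba and Rac2 lie on opposite sides of 0.

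Over the 5 members the median difference from wild-type Flt3- was 0.63, against 0.09 over all genes, with all 5 means above 0, as were 65% of all genes. From wild-type Flt3+ cells it was -0.06, against 0.05 over all genes, with 2 of 5 means above 0, as were 56.9% of all genes. At an unadjusted p under 0.05, 2 members, Cybb and Ncf4, were higher than in wild-type Flt3- cells, as were 1.1% of all genes, and 0 were lower, as 1.3% of all genes were. Against wild-type Flt3+ cells 1 member, Cybb, was lower at that level, as were 2.31% of all genes. After limma's adjustment 0 of 5 members passed in either comparison, against 0.0201% of all genes higher and 0% lower in the first and 0.0351% higher and 0.281% lower in the second. With each array's median subtracted, which moves the first comparison by over 0.1, the differences from wild-type Flt3- were 0.81 for Cybb, 0.28 for Cyba, 0.51 for Ncf1, 1.16 for Ncf4 and 0.21 for Rac2.

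**Figure D3:**
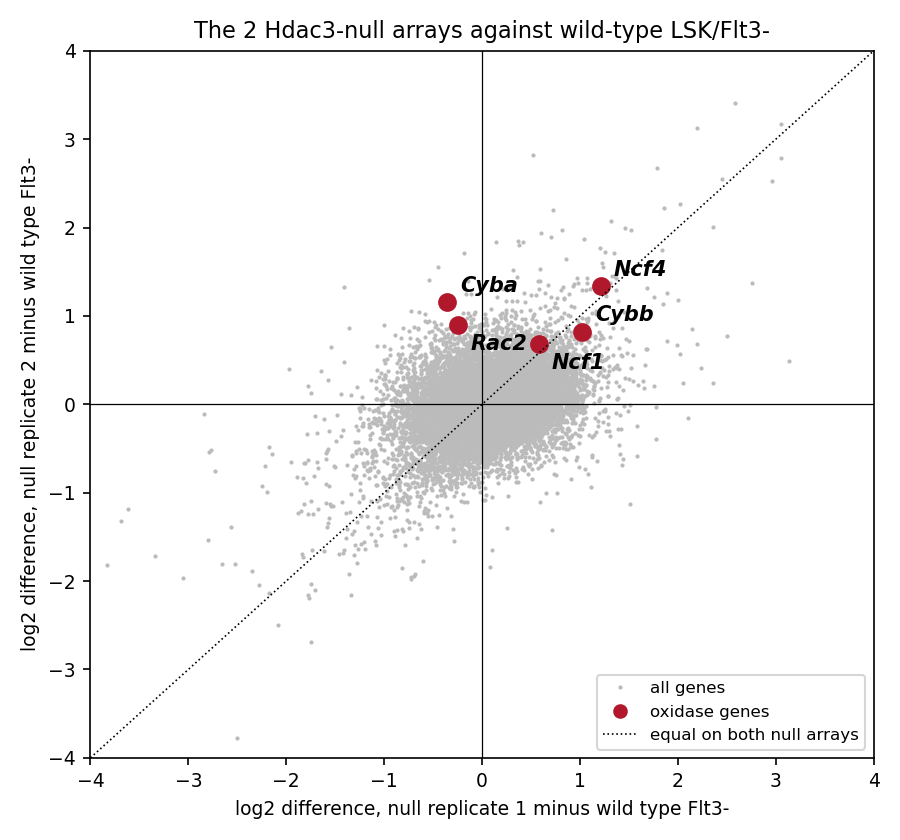
Log2 difference from the wild-type Flt3- array on null replicate 1 (horizontal axis) and null replicate 2 (vertical axis), 1 point a gene, with 4 genes outside the plotted range of 4 log2 units. Cybb, Ncf1 and Ncf4 lie near the dotted line of equal difference, and Cyba and Rac2 lie left of 0 on replicate 1 and above 0 on replicate 2.

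The genes whose profile over the 4 arrays was most like each member's were listed by Euclidean distance between log2 levels centred on each gene's mean, among 8183 genes with a mean level of at least 6, predicted genes left out. The profile nearest to that of Ncf4 was Prss57, a serine protease of neutrophil granules, at a distance of 0.14, with levels of 6.29 and 6.60 on the null arrays, 6.02 in wild-type Flt3+ and 5.23 in wild-type Flt3- cells. Tmem50b (0.21) and the histone variant gene Macroh2a2 (0.22) came next. Nearest to Ncf1 was Cebpa, the transcription factor of early granulocyte and monocyte commitment, at 0.11, with levels of 7.61 and 7.74 on the null arrays, 7.74 in wild-type Flt3+ and 6.92 in wild-type Flt3- cells, followed by Zfp511 and Ap4m1 (0.12 each).

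Cybb had no near match, and its closest profiles were Lgmn, a lysosomal protease, at 0.46, Myadm at 0.56 and Ecm1 at 0.62. Nearest to Cyba were Aldoa, an enzyme of glycolysis, at 0.19, and the mitochondrial import gene Tomm5 and Znrd2 at 0.21 each. Nearest to Rac2 were the adhesion receptor Adgre5 at 0.07, the phosphatase subunit Ppp4c at 0.09 and the proteasome subunit Psmd8 at 0.11. Aldoa, for example, stood at 8.56 and 9.92 on the null arrays, 9.17 in wild-type Flt3+ and 9.03 in wild-type Flt3- cells, again low on replicate 1 and high on replicate 2. Cyba and Rac2 were 0.46 from each other and Ncf1 and Ncf4 0.58, while Cybb was at least 1.16 from every other member. Centred profiles over 4 arrays are few points, and these distances are given as a description.

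Marker genes of cells that use the oxidase were measured on the same arrays. Granulocyte-monocyte progenitor markers had a summed linear level of 9884 and 11234 on the null arrays, 5925 in wild-type Flt3+ and 5524 in wild-type Flt3- cells. The Ncf4 values had the same order of groups. Of the 11 measured markers 9, among them Ncf4's neighbour Csf2rb, were higher than wild-type Flt3- on both null arrays, as were 41.3% of all genes. Of 8 mast cell and basophil markers, 7 were also higher than wild-type Flt3- on both null arrays, against the same 41.3% of all genes. Their median difference was 1.03, with 0 past limma's test. Among them, the IgE receptor gene Fcer1a was at 6.51 and 7.44 on the null arrays, 5.53 in wild-type Flt3+ and 4.31 in wild-type Flt3- cells. Cpa3 went the other way, at 7.25 and 7.62 on the null arrays, 7.71 in wild-type Flt3+ and 8.17 in wild-type Flt3- cells. Against wild-type Flt3+ cells 4 of the 8 were higher on both null arrays, as were 35% of all genes. Lower on both were 2, as were 25.1% of all genes. The summed level of that list was 752 and 1478 on the null arrays, 1120 in wild-type Flt3+ and 624 in wild-type Flt3- cells. The part of progenitors, mast cells and basophils in the Ncf4 values was not tested. Ms4a3, a membrane protein gene of these progenitors, was the marker that rose past the test against both wild-type fractions (log2 difference 3.11, limma adjusted p = 0.0321, from Flt3- and 2.80, adjusted p = 0.00931, from Flt3+). The call against Flt3- was lost after quantile normalization (adjusted p = 0.326), cyclic loess (0.108) or subtraction of array medians (0.0853), and over the 8 settings tried its adjusted p ran from 0.000827 to 0.326. Myeloperoxidase (Mpo), which turns the oxidase's hydrogen peroxide into hypochlorous acid and belongs to this list too, was at 12.12 and 12.30 on the null arrays, 11.47 in wild-type Flt3+ and 11.35 in wild-type Flt3- cells.

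Monocyte and macrophage markers summed to 950 and 1218 on the null arrays, 1653 in wild-type Flt3+ and 560 in wild-type Flt3- cells, which is the order of groups seen for Cybb. All 13 measured markers were higher in the Flt3+ than in the Flt3- wild-type array, as were 56.6% of all genes. At least 2-fold higher there were 6 of them, as were 0.923% of all genes. Below wild-type Flt3+ on both null arrays lay 11 of 13, as did 25.1% of all genes. Against wild-type Flt3+ the colony-stimulating factor receptor gene Csf1r (-2.34, adjusted p = 0.0250), the macrophage adhesion receptor gene Adgre1 (-2.84, adjusted p = 0.00563) and the complement gene C1qc (-4.36, adjusted p = 0.000515) fell in null cells by limma. The Csf1r call was lost after quantile normalization (adjusted p = 0.0742, the highest of 7 settings that began at 0.00143). Against wild-type Flt3- cells, where Cybb was higher in null cells, 3 of 13 markers were higher on both null arrays, as were 41.3% of all genes. Lower on both were 3, as were 19.9% of all genes. Csf1r was at 5.59 and 5.97 on the null arrays against 5.77 in wild-type Flt3- cells, and Adgre1 at 4.52 and 4.13 against 4.20. The higher sum on the null arrays came with the chemokine receptor gene Ccr2, at 8.28 and 9.10 against 5.69, and the lysosomal gene Cd68, at 8.02 and 8.38 against 6.95. In wild-type Flt3+ cells Ccr2 was at 6.54, below both null arrays and so unlike Cybb, and Cd68 was at 8.54. Over the 13 markers the median difference from wild-type Flt3- was 0.01, against 0.09 over all genes. The order of the sums was thus not that of the list as a whole. The part of such cells in the Cybb values was not tested, and in sorted pools more cells of a type and more RNA per cell cannot be told apart.

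**Figure D4:**
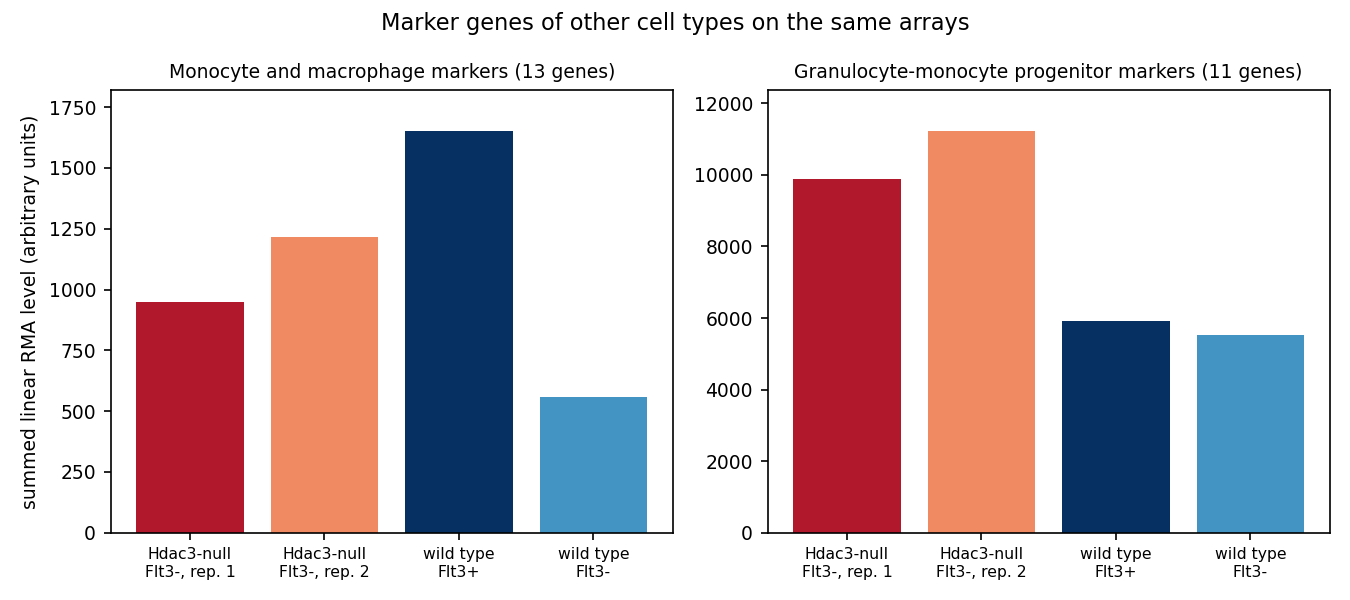
Summed linear RMA level (vertical axis, from 0, arbitrary units) of 13 monocyte and macrophage markers (left) and 11 granulocyte-monocyte progenitor markers (right) on each array. Macrophage markers are highest in wild-type Flt3+ cells, at 1653, and progenitor markers are highest on the 2 null arrays, at 9884 and 11234.

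Mature neutrophil markers showed no common direction, with 6 of 12 above wild-type Flt3- cells on both null arrays, as were 41.3% of all genes, and 3 below, as were 19.9%. They summed to 661 and 675 on the null arrays, 569 in wild-type Flt3+ and 939 in wild-type Flt3- cells. The high wild-type Flt3- sum came from S100a8, at 6.59 and 7.07 on the null arrays against 8.19 in wild-type Flt3- cells, and S100a9, at 7.51 and 7.35 against 8.48, which together encode calprotectin. Without these 2, left out after the values were seen, the sums were 382 and 378 on the null arrays, 360 in wild-type Flt3+ and 289 in wild-type Flt3- cells, so the order of null and wild-type Flt3- turned. Ly6g, the marker used to sort neutrophils, was at 3.71 and 4.24 on the null arrays, 3.93 in wild-type Flt3+ and 3.84 in wild-type Flt3- cells. RMA gives no value of 0, so none of these markers can be read as absent.

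Ncf4 and Rac2 lie on chromosome 15, with 10 protein-coding genes between them in the RefSeq order. The 2 genes next to Ncf4, picked here after their values were seen, are Csf2rb2 and Csf2rb. They encode beta chains of the receptor for interleukin 3 and, for Csf2rb, also of those for interleukin 5 and GM-CSF. Csf2rb2 stood at 7.58 and 7.47 on the null arrays, 6.19 in wild-type Flt3+ and 5.87 in wild-type Flt3- cells, and Csf2rb at 8.06 and 7.97, 6.44 and 6.22 on the same arrays. Their differences from wild-type Flt3- were 1.65 ± 0.35 and 1.79 ± 0.35 (SE), beside 1.28 for Ncf4, and like it they missed the threshold (limma adjusted p = 0.476 and 0.347). Csf2rb2 and Csf2rb are close copies, so their probe sets may share signal. On the far side of this trio Tex33 was at 0.16 and Tst at 0.19, and on the near side Pvalb was at 0.33. Of the 10 genes between Ncf4 and Rac2, 8 were higher on both null arrays, and 6 of the 8 that remain without Csf2rb2 and Csf2rb, against 41.3% of all genes. Those 8 ranged from -0.14 for Mpst to 0.43 for Tmprss6.

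**Figure D5:**
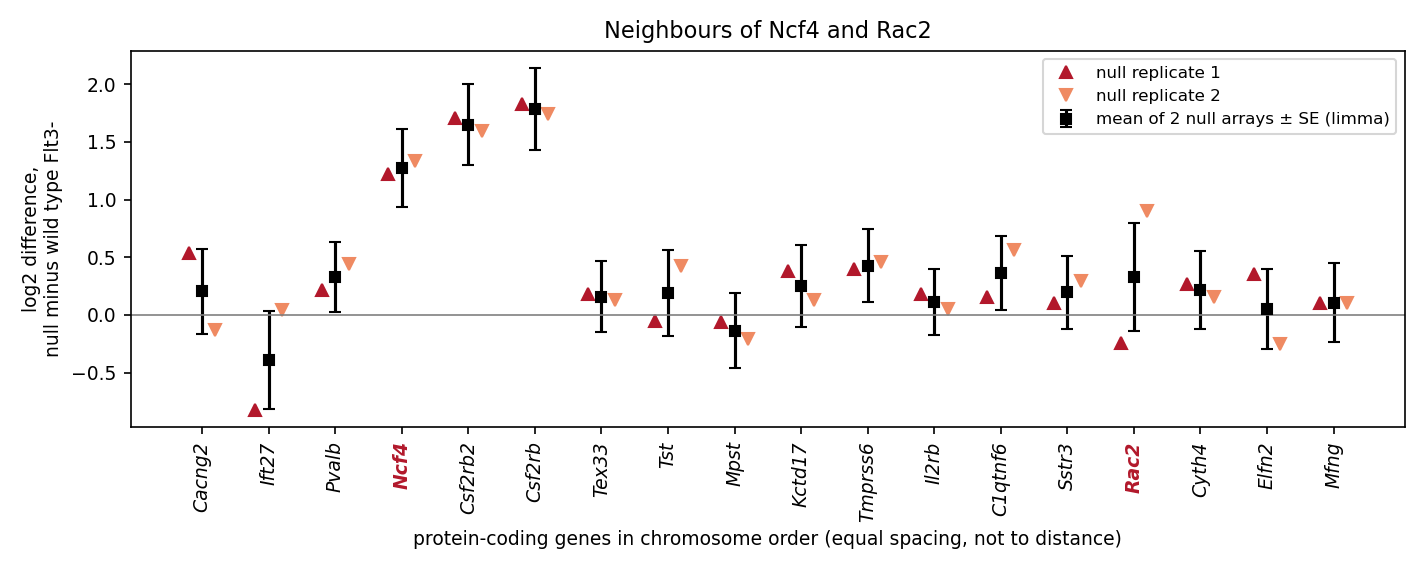
Log2 difference of null minus wild-type Flt3- (vertical axis) for 18 protein-coding genes around Ncf4 and Rac2 on chromosome 15, in order but not to distance. Triangles are the 2 null arrays, squares their mean with limma's standard error. Ncf4, Csf2rb2 and Csf2rb stand at 1.28, 1.65 and 1.79, and the mean of every other gene shown lies between -0.39 and 0.43.

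Of 4 measured partners that help assemble the oxidase, 0 passed in either null comparison, and their median difference from wild-type Flt3- was 0.20. Hvcn1, the proton channel that balances the charge the oxidase moves, was at 5.28 and 5.46 on the null arrays, 4.92 in wild-type Flt3+ and 4.90 in wild-type Flt3- cells. Cybc1, the chaperone that gp91phox needs to mature, was at 6.52 and 6.66 on the null arrays, 6.95 in wild-type Flt3+ and 6.76 in wild-type Flt3- cells, below both wild-type arrays where Cybb lay between them. The GTPase gene Rap1a was at 9.36 and 9.06 on the null arrays, 9.08 in wild-type Flt3+ and 8.89 in wild-type Flt3- cells.

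The 9 genes of the other NADPH oxidases, the non-phagocyte NOX and DUOX enzymes with their organisers, stayed between 3.17 and 5.37 on every array. None passed in either null comparison, and their differences from wild-type Flt3- ran from -0.37 for Nox3 to 0.38 for Nox4. Genes of the kinases, exchange factors and lipid enzymes that start oxidase assembly had a median difference of 0.00 from wild-type Flt3-, against 0.09 over all genes. Above 0 were 10 of 20, as were 65% of all genes, and 0 passed the test. By mean difference over both null comparisons, the Rac exchange factor Tiam1 (0.60 and 0.41 from Flt3- and Flt3+) and the PI3-kinase subunit Pik3cd (0.68 and 0.31) led this list. The Pik3cd null arrays, at 7.54 and 8.21, lay on opposite sides of wild-type Flt3+ (7.57). Next came Arhgdib (-0.36 and -0.39), which holds Rac proteins in the cytosol, and Arhgap25 (-0.26 and -0.48), which ends Rac signalling.

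Among 11 transcription factors linked to oxidase genes, Satb1, a chromatin organiser that also binds the CYBB promoter region in human cells, fell in null cells against wild-type Flt3+ (log2 difference -2.92, limma adjusted p = 0.00931). Its levels were 7.38 and 6.96 on the null arrays, 10.09 in wild-type Flt3+ and 9.46 in wild-type Flt3- cells. The other 10 did not pass in either comparison. Spi1, which encodes PU.1, is among them. Irf8, which acts on Cybb in myeloid cells, was at 5.44 and 6.66 on the null arrays, 7.10 in wild-type Flt3+ and 6.39 in wild-type Flt3- cells. Its null replicates lay on opposite sides of wild-type Flt3- and both below wild-type Flt3+ cells. Cebpe, of late granulocyte development, was at 5.71 and 5.97 on the null arrays, 5.19 in wild-type Flt3+ and 5.15 in wild-type Flt3- cells.

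Of 22 genes that use or remove oxidants, 0 passed in either null comparison, with a median difference of 0.00 from wild-type Flt3-. Gsr, the glutathione reductase that draws on the same NADPH pool, had the largest difference, at 8.09 and 7.99 on the null arrays, 6.93 in wild-type Flt3+ and 7.01 in wild-type Flt3- cells (1.03 and 1.12 from Flt3- and Flt3+; limma adjusted p = 1 and 0.701). Lower on replicate 1 than on replicate 2, as Cyba and Rac2 were, were 17 of the 22, as were 6972 of 19938 genes. The peroxiredoxin gene Prdx1 was at 8.35 and 9.45 on the null arrays, 9.35 in wild-type Flt3+ and 9.16 in wild-type Flt3- cells. Prdx2, at 9.31 and 10.49 on the null arrays, stayed below wild-type Flt3+ (10.59) and Flt3- (10.52) cells on both, unlike Cyba and Rac2.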

How the data were processed

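The authors deposited log2 values, 1 for each probe set and array, computed by RMA in affy 1.23 according to the submitters' processing notes. The series has 1 table of 35556 probe sets. Probe sets with a single gene symbol in the platform annotation (21789) were kept, and for each of 19938 genes the one of the highest average level was taken. Each member had 1. Detection calls, scan dates and the array's genome build are not stated in the labels.

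A single limma model (version 3.58.1, R 4.3.3) with 3 groups and a mean-dependent prior was fitted to the 4 arrays. Its 1 residual degree of freedom comes from the null pair, which lends its spread to the lone wild-type arrays. The code was tested on simulated data. The prior, estimated over all genes, adds 9.01 degrees of freedom, so the median standard error of 0.34 rests mostly on it. Tests were two-sided, with Benjamini-Hochberg adjustment over all genes at 0.05. The wild-type arrays were compared without a test. Genes at least 2-fold apart were counted as well. Named genes were the members, listed partners, up to 4 examples a list by mean difference over both null comparisons and those past the test, and the 3 nearest profiles a member; other genes were picked after their values were seen. The members and lists were chosen with earlier results of these data known.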

Additional observations from a re-analysis of the deposited data

How the results depend on the processing

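In the 8 other settings tried for null against wild-type LSK/Flt3- and the 7 against wild-type LSK/Flt3+, 0 of 5 members passed limma. The adjusted p of Ncf4 in the first comparison ran from 0.361 to 0.952, and that of Cybb in the second from 0.296 to 0.603. With both wild-type arrays as 1 group Cybb turned to -0.17, since that setting averages the 2 wild-type extremes. With 1 null array left out in turn, Cyba ran from -0.36 to 1.16 against wild-type LSK/Flt3- and from -0.59 to 0.92 against wild-type LSK/Flt3+, and Rac2 from -0.25 to 0.90 and from -0.87 to 0.28. With null replicate 1 alone 2 members, Cybb and Ncf4, were at least 2-fold higher than wild-type LSK/Flt3-, as were 267 of 19938 genes. With replicate 2 alone 2 members, Cyba and Ncf4, were, as were 133 of 19938 genes. On both null arrays 1 member, Ncf4, was, as were 50 of 19938 genes.

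Counts over all genes moved more. Against wild-type LSK/Flt3- limma called 4 higher genes and 0 lower. It called 0 higher after quantile normalization, 2 after cyclic loess or subtraction of array medians, and, with a robust estimate of the spread, 12 higher and 13 lower. Against wild-type LSK/Flt3+ it called 7 higher and 56 lower, with 15 higher and 99 lower under the robust estimate, 89 lower with array medians subtracted and 17 lower among genes averaging at least 6. At least 2-fold on both null arrays were 50 higher and 76 lower genes than wild-type LSK/Flt3-, and 133 to 267 higher and 165 to 240 lower on 1 null array alone. Than wild-type LSK/Flt3+ they were 52 and 215, and 113 to 342 and 331 to 459 on 1 alone. Among genes averaging at least 6, the lower counts were 50 and 114. Between the wild-type arrays 184 genes were at least 2-fold higher in Flt3+ and 35 lower, with 66 higher under that filter and 58 lower with array medians subtracted. No paired analysis was possible because each wild-type fraction has 1 array and no replicate number shared with the null pair.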
